A study of Homo sapiens with 6 samples.

Results

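A set of 43 interferon-stimulated genes was examined by mRNA sequencing in HCC1806/HM3 breast cancer cells with and without knockdown of MSLN, the gene of the cell surface glycoprotein mesothelin. The set was a list of named effectors and sensors, whose members were matched by gene symbol in the deposited table, and all 43 were among its 17860 genes. HCC1806/HM3 is a liver-tropic derivative of the human triple-negative line HCC1806, obtained by serial passage through mice. Lentivirus carrying a control shRNA gave the shNC cells and lentivirus carrying MSLN-directed shRNA gave the shMSLN cells, with 3 samples of each. Both were stable after G418 selection, so both groups carried the vector and its resistance gene. The sources used here do not state whether the shMSLN samples came from a single line. Nor do they state which of the human MSLN target sequences of the study these samples carried. The labels do not say whether the samples of a group were separate cultures, so p-values measure only the spread between these samples, which may be technical.

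Interferons are secreted by cells that sense foreign or misplaced nucleic acids, and they act through cell surface receptors and the kinases JAK1 and TYK2. Type I and type III interferons activate a transcription factor complex that contains STAT2 and IRF9 and switches on genes whose promoters hold an interferon-stimulated response element (ISRE), whereas interferon-gamma acts mainly at gamma-activated sites (GAS). The induced genes sense viral RNA, block entry, translation or release of viruses, or feed back on the pathway, and many carcinoma cells express them without added interferon.

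The estimated counts summed to between 17507837 and 18512135 reads per sample. MSLN was at 231, 226 and 227 CPM (counts scaled to library size) in the shNC samples and 37.1, 36.2 and 35.4 CPM in the shMSLN samples, or 15.9% of control. The shMSLN columns of the table had been made differently: they held 695 to 1103 genes without a value, the most in replicate 1, against 0 in the shNC columns, and among genes over 100 reads in shMSLN replicates 2 and 3, 47.7% of counts were whole numbers, against 3.36% to 7.02% in the other 4 samples. Every interferon-stimulated gene had a value in all 6 samples and passed the filter on low counts. Replicate 1 resembled the shNC columns in its share of whole numbers, at 4.67%, but not in its missing values, and it listed 0 genes at a count of 0. Missing values thus set all 3 shMSLN columns apart from all 3 shNC columns. Differences due to the knockdown and to the processing therefore cannot be told apart. Log2 fold changes are also given for replicate 1 alone against shNC.

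Knockdown of MSLN was accompanied by small changes in both directions across the interferon-stimulated genes, and IFI27 was not the only member that moved. Of the 43 genes, 11 rose and 10 fell in the shMSLN samples (edgeR's quasi-likelihood test, Benjamini-Hochberg adjusted p below 0.05 over all 14552 tested genes), and 22 did not pass the threshold. The share that passed was 48.8%, against 34.6% of all tested genes and 39.3% of those with a mean of at least 10 CPM. By direction, 16.6% of all tested genes were higher and 18.0% lower. Among genes with a mean of at least 10 CPM, 17.2% were higher and 22.1% lower. The median log2 fold change of the members was 0.028, beside 0.0019 for all tested genes. Without IFI27, 20 of 42 members passed and the median was 0.0066. A change of more than 2-fold was found for IFI27 and for none of the other 42 members, against 1.96% of all tested genes. With shMSLN replicate 1 alone against shNC, the median of the members was -0.017, beside -0.00049 for all tested genes. The log2 fold change of IFI27 was then 1.03. That fit assumes that the lone sample varies as the shNC samples do. For 22 of the 43 genes the shNC and shMSLN samples did not overlap, as was the case for 46.2% of all tested genes. Among genes of at least 10 CPM this held for 5253 of 10502. Members both called and without overlap numbered 19, against 4847 of all 14552 tested genes and 3979 of the 10502. In bulk RNA, fewer cells that express a gene and less of its RNA per cell cannot be told apart.

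**Figure D1:**
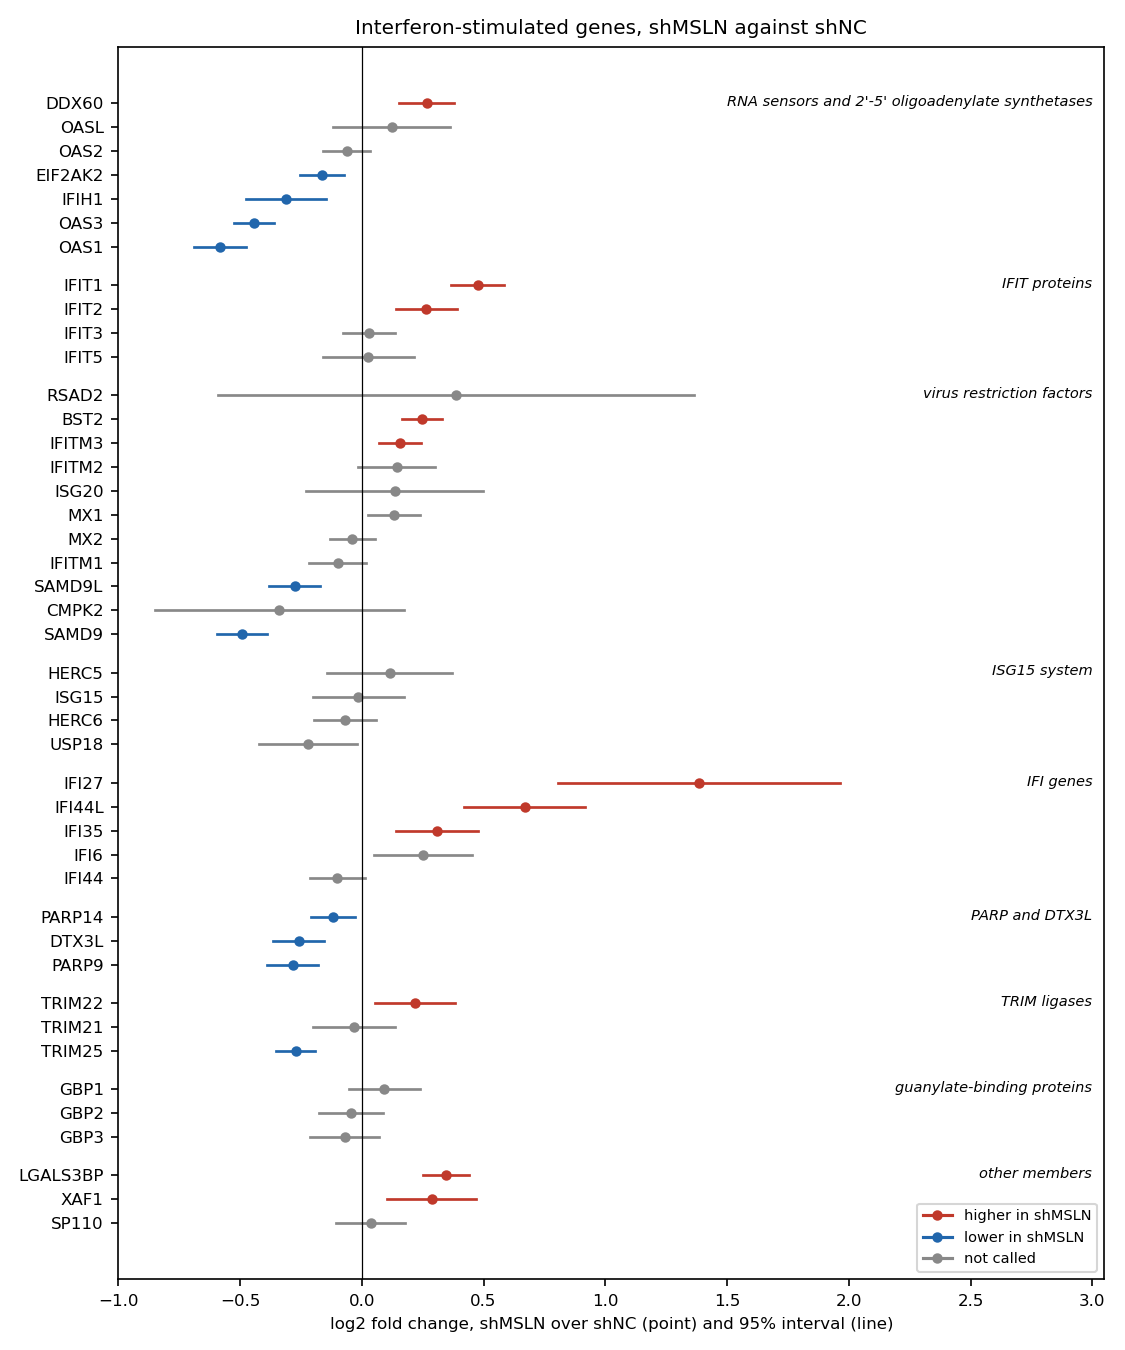
Log2 fold change (x axis, shMSLN over shNC) of the 43 interferon-stimulated genes, listed on the y axis by role, with 95% intervals from edgeR as lines and colours for the call. IFI27 lies at 1.39 and the other members lie between -0.58 and 0.67, with calls on both sides of 0.

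Most members whose promoter was searched shared an upstream sequence feature, whichever way they moved. RefSeq promoter windows of GRCh38.p14, which run from 250 bases before to 50 bases after a start, were found for 35 of the 43 genes. ISRE letters, searched on both strands as GAAA, any 2 bases and GAAA again, occurred in windows of 27 of these 35 genes (77.1%), against 4.38% of the 27305 genes in the promoter table. The match was found in 7 of 9 members that were higher, 7 of 10 that were lower and 13 of 16 that were not called. GAS letters, TTCNNNGAA, which read the same on both strands, occurred in 10 of 35 members (28.6%) and 9.38% of all genes, with 4 of 9 among higher, 2 of 10 among lower and 4 of 16 among uncalled members. A match is a description of the letters and not a proven site.

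The 250 bases before the start are printed 5′ to 3′ on the gene's strand for IFI27 and for the 3 other called members with the largest changes, to show where these letters lay in genes that rose and genes that fell. Capitals mark ISRE matches. IFI27 (chr14:94110486-94110735, forward strand, the first of its windows) held one match on each strand, at 108 and 95 bases before the start, and a GAS match at 101 bases overlapped both. IFI44L (chr1:78620198-78620447, forward strand) held the same 10 letters at 164 and 73 bases. SAMD9 (chr7:93117980-93118229, reverse strand) held one match at 136 bases, and OAS1 (chr12:112906712-112906961, forward strand) held none, which says only that these exact letters are not in its window. The OAS1 window did hold a GAS match, at 168 bases before the start.
IFI27: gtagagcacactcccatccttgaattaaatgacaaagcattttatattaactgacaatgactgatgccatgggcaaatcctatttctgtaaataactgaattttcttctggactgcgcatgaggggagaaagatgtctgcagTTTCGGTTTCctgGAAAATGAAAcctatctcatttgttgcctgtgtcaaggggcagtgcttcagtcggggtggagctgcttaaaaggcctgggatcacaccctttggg
IFI44L: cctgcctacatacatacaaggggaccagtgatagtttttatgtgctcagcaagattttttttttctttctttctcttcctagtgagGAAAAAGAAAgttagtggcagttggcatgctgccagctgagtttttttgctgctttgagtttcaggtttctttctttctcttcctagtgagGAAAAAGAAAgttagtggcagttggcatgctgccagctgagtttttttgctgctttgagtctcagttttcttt
SAMD9: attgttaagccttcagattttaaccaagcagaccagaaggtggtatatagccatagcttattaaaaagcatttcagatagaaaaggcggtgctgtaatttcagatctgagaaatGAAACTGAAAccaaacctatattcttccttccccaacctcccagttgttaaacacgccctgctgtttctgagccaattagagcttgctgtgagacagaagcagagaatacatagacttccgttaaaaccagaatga
OAS1: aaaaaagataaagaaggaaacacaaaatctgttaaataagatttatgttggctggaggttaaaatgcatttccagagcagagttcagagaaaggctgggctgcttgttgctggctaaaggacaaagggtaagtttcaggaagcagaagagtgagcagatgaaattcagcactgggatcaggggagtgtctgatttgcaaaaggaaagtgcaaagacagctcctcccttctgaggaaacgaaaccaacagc

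The level of the set spanned about 3 orders of magnitude per transcript length, on the deposited TPM scale, which corrects for both length and depth. IFITM3, which blocks fusion of viruses in endosomes, was the most abundant member, at 452 ± 4.32 TPM in shNC cells and 517 ± 4.44 TPM in shMSLN cells (mean ± SD, n = 3). LGALS3BP, a secreted glycoprotein that binds galectins, followed at 416 ± 13.1 and 541 ± 22.5 TPM, so that the order of the leading pair changed between the groups. BST2, also called tetherin, which holds budding virions at the cell surface, was at 219 ± 7.23 and 267 ± 1.19 TPM. IFITM1, OAS1 and ISG15 followed with means over all 6 samples of 146, 123 and 122 TPM. OAS1 was above ISG15 in the shNC samples, at 139 to 151 against 107 to 137 TPM. It was below ISG15 in the shMSLN samples, at 99.2 to 101 against 116 to 132 TPM. At the other end, IFI27 ranked 40 of 43 with a mean of 4.68 TPM, and RSAD2, which encodes the antiviral enzyme viperin, was the lowest at 0.505 TPM. The member with the largest fold change was therefore among those with the fewest reads.

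**Figure D2:**
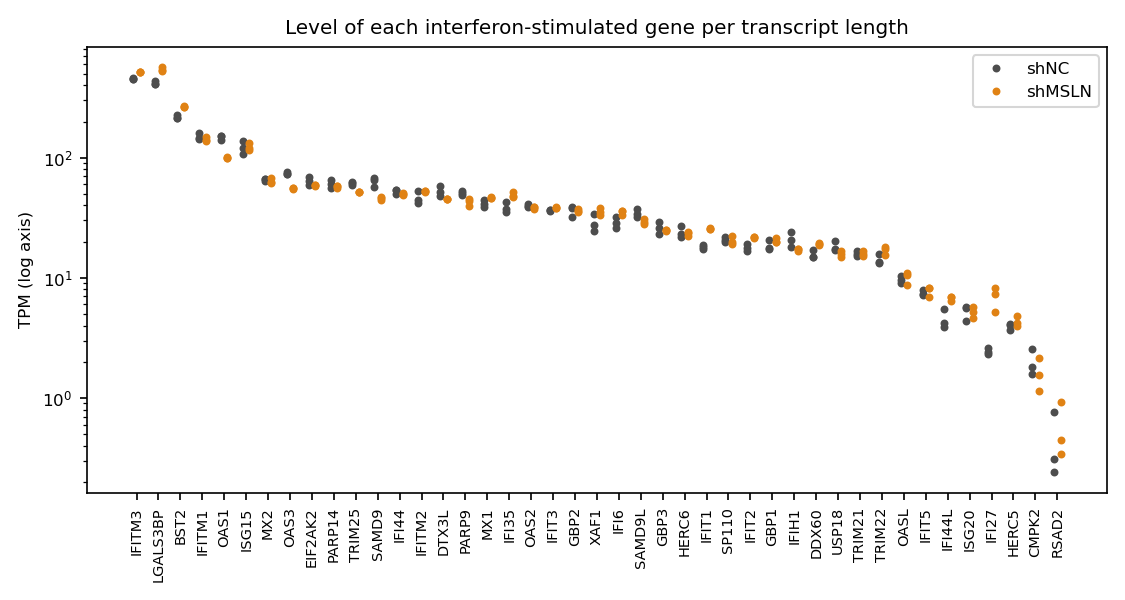
TPM (y axis, log scale) of the 43 interferon-stimulated genes in each of the 3 shNC (grey) and 3 shMSLN (orange) samples, ordered on the x axis by mean level. IFITM3 and LGALS3BP lead at means of 485 and 479 TPM, and IFI27 is near the low end, with its shMSLN points above its shNC points.

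The IFI genes, named for their induction by interferon, held the largest rises: 3 of 5 were higher, and their median log2 fold change was 0.31. IFI27, which encodes a small mitochondrial membrane protein (NCBI Gene 3429, chr14:94104836-94116698, forward strand, in GENCODE release 29 on GRCh38), was counted at 11.9, 13 and 12 reads in the shNC samples and at 26, 37 and 34 reads in the shMSLN samples. On the CPM scale this was 0.657, 0.721 and 0.668 against 1.40, 2.07 and 1.92. All 3 shMSLN samples were above all 3 shNC samples, with replicate 1 the lowest of them. The fold change was 2.62 (log2 1.39, standard error (SE) 0.27, 95% interval 0.81 to 1.97, adjusted p = 0.00116). An exact two-sided permutation test of 3 against 3 samples cannot go below p = 0.1. With shMSLN replicate 1 alone, the log2 fold change was 1.03 and did not pass (adjusted p = 0.127).

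IFI44L, a gene of unsettled function with antiviral activity in culture, was at 5.80, 6.60 and 5.62 CPM in shNC and 10.6, 8.92 and 9.09 CPM in shMSLN cells. The groups did not overlap, and the log2 fold change was 0.67 (SE 0.12, adjusted p = 4.53e-04). Its interval, 0.42 to 0.92, overlapped that of IFI27, and the difference between both genes was not tested. IFI35, whose protein forms a complex with NMI, was at 22.9, 19.3 and 19.0 CPM against 26.7, 24.4 and 24.7 CPM. It rose by 0.31 on the log2 scale (SE 0.078, adjusted p = 0.00677), again without overlap. IFI6, a small membrane protein related to IFI27, was at 9.29 to 11.3 CPM in shNC and 11.7 to 12.7 CPM in shMSLN cells, and its difference of 0.25 missed the threshold (adjusted p = 0.0528). It passed with upper-quartile scaling (adjusted p = 0.0333), robust estimation (0.0487) and without shNC replicate 2 (0.0234). It also passed with a replicate block (0.0442) and with limma on log2 TPM (0.0169). IFI44, which starts 3651 bases after the end of IFI44L on chromosome 1, was at 39.1 to 42.5 CPM against 37.5 to 38.3 CPM, a log2 difference of -0.10 (95% interval -0.21 to 0.012).

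Of the 7 RNA sensors and oligoadenylate synthetases, 4 were lower and 1 was higher. OAS1 and OAS3 make 2′-5′ oligoadenylates on double-stranded RNA, which activate the nuclease RNase L. OAS1 was at 113, 101 and 113 CPM in shNC cells and 73.8, 72.5 and 71.8 CPM in shMSLN cells. The shMSLN samples were all below the shNC samples, at 66.7% of control, which was the largest fall in the set (log2 -0.58, SE 0.050, adjusted p = 5.42e-07). OAS3 was at 233, 217 and 222 CPM against 164, 165 and 166 CPM. It also fell without overlap, to 73.7% of control (log2 -0.44, SE 0.038, adjusted p = 6.04e-07). OAS2, the third synthetase, lies in the same row of genes, 5146 bases after OAS3 on chromosome 12, and its samples overlapped at 71.4 to 75.9 CPM and 68.8 to 72.7 CPM. Its log2 difference was -0.063 (95% interval -0.16 to 0.035). The related OASL, which lacks synthetase activity, was not called either, at a difference of 0.12 (95% interval -0.12 to 0.36).

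IFIH1 encodes MDA5, the cytoplasmic sensor of long double-stranded RNA. It was at 30.1, 38.2 and 33.9 CPM in shNC and 28.1, 27.8 and 26.5 CPM in shMSLN cells. The groups were separate but close, and the log2 fold change was -0.31 (SE 0.077, adjusted p = 0.00578). EIF2AK2 encodes PKR, the kinase that halts translation when it binds such RNA, and was at 276, 310.2 and 298 CPM against 259.8, 266 and 265 CPM. It fell by 0.16 on the log2 scale (SE 0.042, adjusted p = 0.00796). The helicase gene DDX60 moved the other way, from 42.6, 46.2 and 42.0 CPM to 54.1, 51.1 and 52.0 CPM. Every shMSLN sample exceeded every shNC sample (log2 0.27, SE 0.053, adjusted p = 0.00130).

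The IFIT genes, whose proteins bind foreign RNA ends and restrict its translation, were represented by 4 neighbours on chromosome 10, and 2 of them rose. IFIT1 was at 34.8, 34.9 and 37.2 CPM in shNC cells and 49.7, 49.7 and 49.1 CPM in shMSLN cells. The spread within groups was small beside the gap between them (log2 0.48, SE 0.051, adjusted p = 5.37e-06). IFIT2 went from 26.2, 28.8 and 27.6 CPM to 33.7, 32.5 and 33.2 CPM, also without overlap (log2 0.27, SE 0.058, adjusted p = 0.00268). IFIT3, a binding partner of IFIT1 and IFIT2 that lies between them on the chromosome, was at 39.6 to 40.9 CPM in shNC and 40.3 to 41.6 CPM in shMSLN cells. Its log2 difference was 0.029 with a 95% interval of -0.077 to 0.14. IFIT5, the outermost gene of the row, gave 0.028 (95% interval -0.16 to 0.21).

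Among 11 virus restriction factors, 2 were higher, 2 were lower and 7 did not pass. BST2 was at 96.6, 98.3 and 96.1 CPM against 116, 114 and 115 CPM, and rose by 0.25 on the log2 scale (SE 0.039, adjusted p = 1.79e-04). IFITM3 went from 121, 115 and 119 CPM to 134, 131 and 130.3 CPM (log2 0.16, SE 0.040, adjusted p = 0.00674). Neither gene's groups overlapped. IFITM1, at 41.8, 45.0 and 42.1 CPM against 39.6, 38.8 and 42.0 CPM, did not pass, with a log2 difference of -0.099 (95% interval -0.22 to 0.017), and IFITM2 gave 0.14 (95% interval -0.016 to 0.30), which passed without shNC replicate 2 (adjusted p = 0.0266). The IFITM genes are close copies of each other and their reads may be split between them. In GENCODE release 29, IFITM1 and IFITM2 share 351 exonic bases on one strand, and 21.3% of the exonic bases of IFITM3 are shared with a transcript on the opposite strand. The sources used here do not say whether reads were counted by strand, so such reads cannot be told apart.

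SAMD9 and SAMD9L, adjacent genes on chromosome 7 whose proteins restrict poxviruses and slow translation, both fell. SAMD9 was at 181, 204 and 204 CPM in shNC and 137, 139 and 143 CPM in shMSLN cells, or 71.1% of control (log2 -0.49, SE 0.047, adjusted p = 1.90e-06). SAMD9L was at 100.4, 112 and 107 CPM against 85.8, 91.4 and 86.9 CPM (log2 -0.28, SE 0.048, adjusted p = 4.94e-04). Neither showed overlap between groups. MX1 and MX2 encode dynamin-like GTPases that trap viral capsids. MX1 was at 51.5 to 57.3 CPM in shNC and 59.0 to 60.7 CPM in shMSLN cells, a difference of 0.13 on the log2 scale that missed the threshold (adjusted p = 0.0543). It passed with upper-quartile scaling (adjusted p = 0.0227), with at least 10 counts required in every sample (0.0461) and without shNC replicate 2 (0.0192). MX1 also passed with a replicate block (0.0313) and with limma on log2 TPM (0.0408). MX2 gave -0.038 (95% interval -0.13 to 0.053). The sparse members CMPK2, ISG20 and RSAD2, all under 5 CPM, gave -0.34, 0.13 and 0.39 on the log2 scale, and their intervals spanned 0. For RSAD2, at 0.383 to 1.17 CPM in shNC and 0.538 to 1.41 CPM in shMSLN cells, the interval ran from -0.59 to 1.36, so a fall, no change and a rise beyond 2-fold all lay within it at this depth.

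**Figure D3:**
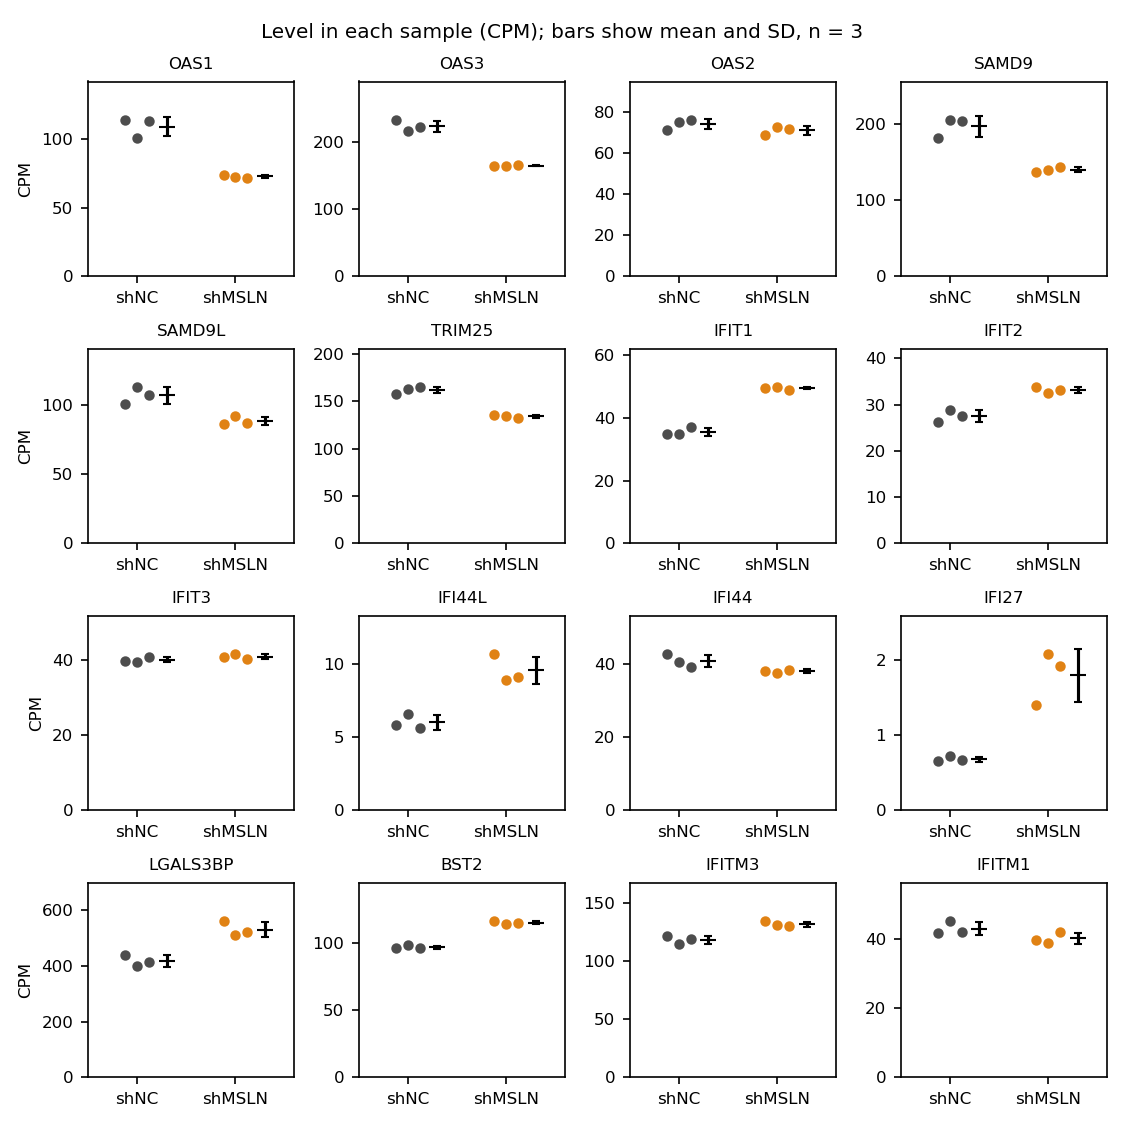
CPM (y axis, from 0) of 16 interferon-stimulated genes in each shNC (grey) and shMSLN (orange) sample, with the mean and SD of the 3 samples of a group in black. OAS1, OAS3, SAMD9, SAMD9L and TRIM25 are lower in all shMSLN samples, IFIT1, IFIT2, IFI44L, IFI27, LGALS3BP, BST2 and IFITM3 are higher, and OAS2, IFIT3 and IFITM1 overlap.

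The PARP9, DTX3L and PARP14 genes lie in one stretch of chromosome 3, and all 3 fell. PARP9 and DTX3L encode an ADP-ribosyltransferase and a ubiquitin ligase that act as a complex. PARP9 was at 78.6, 82.4 and 81.5 CPM in shNC cells and 67.5, 69.0 and 62.6 CPM in shMSLN cells (log2 -0.28, SE 0.048, adjusted p = 3.78e-04). DTX3L was at 131, 152 and 140.0 CPM against 118, 117 and 118 CPM (log2 -0.26, SE 0.049, adjusted p = 9.37e-04). The groups of both genes were separate. The pair overlaps head to head and shares 217 exonic bases on opposite strands, and 1 ISRE match, at chr3:122564332-122564341, lies in the promoter windows of both. PARP14, which transfers single ADP-ribose units to proteins, was at 201, 224 and 216 CPM against 194, 198 and 199 CPM. Its fall of 0.12 on the log2 scale was the smallest called (SE 0.042, adjusted p = 0.0419), and it passed in 8 of 18 other settings. With single samples left out, it passed only without shNC replicate 1, and its adjusted p was 0.101 to 0.134 in the other 5 refits.

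Of the TRIM ubiquitin ligases, TRIM25, which activates the RNA sensor RIG-I, was lower. Its samples were at 158, 163 and 165 CPM in shNC and 135, 134 and 133 CPM in shMSLN cells, with no overlap (log2 -0.27, SE 0.037, adjusted p = 5.92e-05). TRIM22, which restricts several viruses, was at 17.9, 20.3 and 18.1 CPM against 20.3, 22.2 and 23.3 CPM. The call of a rise (log2 0.22, SE 0.077, adjusted p = 0.0379) rested on groups that touched, and it was lost in 7 of 18 other settings. Without shNC replicate 1 or 3 the adjusted p was 0.0804 and 0.127, and without shMSLN replicate 2 or 3 it was 0.106 and 0.155. TRIM21, a cytosolic antibody receptor, gave -0.033 (95% interval -0.20 to 0.14). XAF1, an antagonist of the apoptosis inhibitor XIAP, was at 36.0, 48.6 and 39.6 CPM against 48.1, 49.5 and 53.9 CPM. It passed with a log2 fold change of 0.29 (SE 0.085, adjusted p = 0.0172), although the groups overlapped, and 38.3% of its exonic bases are shared with a transcript on the opposite strand. Without shNC replicate 3 or shMSLN replicate 3 the XAF1 call was lost (adjusted p = 0.0784 and 0.0814). LGALS3BP rose from 438, 399 and 413 CPM to 558, 509 and 521 CPM. All 3 shMSLN samples were above the shNC samples, at 127% of control (log2 0.35, SE 0.044, adjusted p = 2.69e-05). SP110, a nuclear body protein, did not pass, at 0.038 (95% interval -0.10 to 0.18).

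Neither the ISG15 system nor the guanylate-binding proteins had a called member. ISG15, a ubiquitin-like protein that is among the genes most responsive to interferon, was at 38.1, 28.5 and 33.0 CPM in shNC and 35.5, 32.3 and 30.9 CPM in shMSLN cells. Its log2 difference was -0.014 (95% interval -0.20 to 0.17), and its sign turned with upper-quartile scaling. HERC5, the ligase that attaches ISG15, and its relative HERC6 gave 0.12 (95% interval -0.14 to 0.37) and -0.070 (95% interval -0.20 to 0.057). USP18, which removes ISG15 and dampens the type I receptor, gave -0.22 (95% interval -0.42 to -0.021, adjusted p = 0.0823), and passed without shNC replicate 2 (adjusted p = 0.0237). GBP1, GBP2 and GBP3, GTPases that attack vacuoles of intracellular pathogens and respond mainly to interferon-gamma, gave 0.093, -0.044 and -0.070. GBP2 passed without shNC replicate 1, at -0.12 (adjusted p = 0.0419). Over the 17 uncalled members with a mean of at least 10 CPM, the 95% intervals ran from -0.42 to 0.45. A p that misses the threshold does not show that a gene was unchanged.

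Some members of one gene cluster had unequal fitted log2 fold changes. The ratio of OAS1 to OAS2, which have OAS3 between them, was in CPM 1.34 to 1.59 in the shNC samples and 0.998 to 1.07 in the shMSLN samples. For IFIT1 over IFIT3 it was 0.871 to 0.910 and 1.20 to 1.22. For IFI44L over IFI44 it was 0.137 to 0.163 and 0.237 to 0.280. These ratios cancel the scaling of a library. They belong to 8 pairs chosen after their values were seen, for being unequal. An exact permutation test gave p = 0.1 for each pair, the lowest that 3 against 3 samples allow. It therefore cannot decide whether a ratio changed. Some other members of a cluster had like values. Log2 fold changes were -0.28 and -0.26 for the adjacent PARP9 and DTX3L. They were -0.044 and -0.070 for GBP2 and GBP3, and 0.029 and 0.028 for IFIT3 and IFIT5. GBP1, which lies between GBP2 and GBP3, gave 0.093, and IFIT1, between IFIT3 and IFIT5, gave 0.48.

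Long and short members did not lie alike. The transcript length implied by the deposited counts and FPKM values had a median of 2839 bases for the 11 higher members and 6126 bases for the 10 lower members. OAS1, at 1599 bases, was the exception among the lower members. Over all tested genes the medians were 3048 and 3675 bases, and the median log2 fold change went from 0.025 in the 3638 shortest genes to -0.028 in the 3638 longest. With this trend removed, an alternative added after seeing the data, 20 members passed, 11 higher and 9 lower, and PARP14 was the call that was lost.

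**Figure D4:**
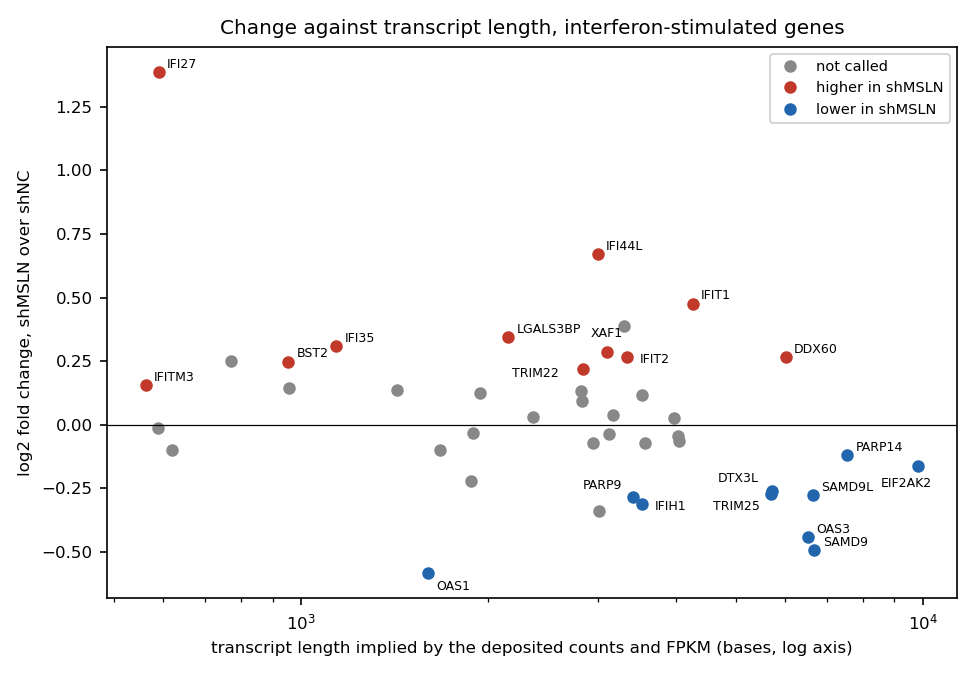
Log2 fold change (y axis, shMSLN over shNC) against implied transcript length (x axis, bases, log scale) for the 43 interferon-stimulated genes, with called members named. IFI27 is at the upper left at 1.39, and most lower members, apart from OAS1, lie between 3416 and 9835 bases.

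Of the genes that carry the interferon signal, more fell than rose, and most did not pass. Over lists of interferon ligands, receptors, signal transducers, nucleic acid sensors and negative regulators, 35 of 37 genes were in the table and 29 were tested, of which 3 were higher and 10 lower, with a median log2 fold change of -0.11. Over all tested genes 16.6% were higher and 18.0% lower, and among those of at least 10 CPM 17.2% and 22.1%. The 13 calls became 6 without shMSLN replicate 3, 8 without shNC replicate 3 and 17 without shNC replicate 1. Calls over all genes were 3765, 3806 and 5399 in these refits, against 5032 with all samples. Ligands were near the limit of detection. IFNE, the epithelial type I interferon, reached 27 reads and gave -0.72 (95% interval -1.36 to -0.084, adjusted p = 0.0749). The other 6 ligands in the table, IFNA1, IFNB1, IFNK, IFNL1, IFNL2 and IFNL3, had at most 2.41 reads in any sample, some with missing values, and IFNG and IFNA2 were not analysed here.

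Among receptors, 4 of 6 were lower and 0 were higher. IFNGR1 and IFNGR2, the chains of the interferon-gamma receptor, went from 69.7 ± 3.64 to 51.1 ± 3.60 CPM and from 77.1 ± 1.05 to 57.4 ± 0.247 CPM (SD, n = 3). Both fell without overlap, by 0.45 and 0.43 on the log2 scale (adjusted p = 3.12e-05 and 2.89e-06). IFNAR2, of the type I receptor, and IL10RB, shared by the type III receptor, fell by 0.21 and 0.15 (adjusted p = 0.00709 and 0.0236). IFNAR1 and IFNLR1 did not pass, each at -0.11.

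STAT2, a transcription factor that acts at the ISRE, was higher at 103 ± 2.33 and 117 ± 4.64 CPM (log2 0.19, adjusted p = 0.00330). IRF9, its DNA-binding partner, also passed, at 0.29 (adjusted p = 0.0443), with overlapping groups of 18.2 ± 3.53 and 22.3 ± 1.20 CPM. The kinase TYK2 was lower by 0.17 (adjusted p = 0.00940), and JAK1 gave -0.0062 (95% interval -0.095 to 0.083), with a sign that turned under upper-quartile scaling. Among sensing genes, IKBKE, a kinase that activates IRF3 and acts on the ISRE complex, had the largest change, from 45.6 ± 2.06 to 29.8 ± 1.85 CPM (log2 -0.61, adjusted p = 2.21e-06). The adaptors MAVS and TICAM1 and the DNA sensor CGAS were lower by 0.14, 0.28 and 0.21 (adjusted p = 0.0119, 0.0137 and 0.0192), and the RNA receptor TLR3 was higher by 0.14 (adjusted p = 0.0318). DDX58, the RIG-I gene, was not called, at -0.066. The phosphatase PTPN2 was the only called gene of 6 negative regulators, lower by 0.18 (adjusted p = 0.0113). Of the 13 calls in these lists, those of IFNGR1, IFNGR2, IKBKE and STAT2 held in all 18 other settings. Those of IRF9, IL10RB and TLR3 held in 8, 10 and 12 of them, those of CGAS and TICAM1 in 13, MAVS and PTPN2 in 14, IFNAR2 in 16 and TYK2 in 17. Without shMSLN replicate 3 alone, the calls of IRF9, IL10RB, TLR3, CGAS, TICAM1, MAVS and PTPN2 were lost, with adjusted p of 0.0512 to 0.115.

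Markers of the labelled cell type and of other cells were read in the same libraries. The basal keratin KRT5 was at 2228 TPM in shNC and 1759 TPM in shMSLN cells and fell by 0.38 on the log2 scale. KRT6A and TP63 were lower as well, and KRT17, CDH1 and EGFR were higher, so 6 of 8 basal and epithelial markers had changed beside the interferon-stimulated genes, against 39.3% of all genes of at least 10 CPM; their part in the result was not tested. Basal KRT14 was low, at 4.78 and 5.51 TPM. Immune cell markers summed to 36.0 to 40.3 TPM in shNC and 36.0 to 39.0 TPM in shMSLN samples, most of it CD68, and 0 of the 3 tested were called. CD3E of T cells had at most 1 read in any sample. Of the markers of plasmacytoid dendritic cells, which secrete interferon, LILRA4 had at most 1 read in the shNC samples and no value in the shMSLN samples, and CLEC4C had at most 7.02 reads in any sample, at 0.09 to 0.51 TPM in shNC and 0.35 to 0.69 TPM in shMSLN samples. Stromal and endothelial markers summed to 14.5 to 15.1 and 15.2 to 15.6 TPM, and 1 of 4 tested was called, VWF, which was higher by 0.41 on the log2 scale (adjusted p = 0.0273). Of the hormone receptors, ESR1 was higher, at 6.56 and 9.39 TPM (log2 0.45, adjusted p = 3.63e-04), and PGR had at most 1 read. The part of these markers in the result was not tested either.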

How the data were processed

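RNA was sequenced by BGI after oligo(dT) enrichment. The authors deposited estimated counts, FPKM and TPM values per gene, with no statement in the sources used here of the aligner or quantifier; the submitters' processing notes name GRCh38 p13. Estimated counts were rounded to whole numbers, genes with a missing value (1287) were left out, and shMSLN and shNC were compared with the quasi-likelihood test of edgeR 4.0.16 (R 4.3.3), after TMM scaling and filterByExpr, with no covariate and Benjamini-Hochberg adjustment over 14552 genes. CPM values use TMM-scaled totals. SEs are the log2 fold change divided by the square root of F. The authors' FPKM values served for implied lengths, and the deposited TPM values for levels between genes and for a limma 3.58.1 fit on log2(TPM + 0.5). The edgeR fit was tested on simulated data. The rule for named genes covered IFI27, all called members, the 5 with the highest TPM, called pathway genes and a few named signal transducers; other genes named were chosen after their values were seen. A gene covered by this rule is not reported here. The members and lists were chosen with earlier results of these data known. Coordinates of genes are from GENCODE release 29 on GRCh38, and promoters from RefSeq GRCh38.p14. Alternatives were RLE and upper-quartile scaling, other filters, limma-voom, DESeq2 1.42.0, a replicate block, robust dispersions, missing values as 0, each sample left out and shMSLN replicate 1 alone.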

Additional observations from a re-analysis of the deposited data

How the results depend on the processing

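Of the 21 called members, 12 kept their call and direction in all 18 other settings: BST2, DDX60, IFI35, IFI44L, IFIT1 and LGALS3BP higher, and OAS1, OAS3, PARP9, SAMD9, SAMD9L and TRIM25 lower. With shMSLN replicate 1 alone against shNC, 12 members passed (6 higher, 6 lower), 0 exceeded 2-fold, the median was -0.017, 1797 of all genes and 4 pathway genes passed, and IFI27 was at 1.03 (adjusted p = 0.127); fewer samples enter that fit. Called members ranged from 18 to 24 with 1 sample left out in turn, with 9 to 14 higher and 9 to 11 lower. In the same refits the median of the members ranged from -0.010 to 0.029, the log2 fold change of IFI27 from 1.27 to 1.54, calls over all genes from 3695 to 5399, and pathway genes called from 6 (shMSLN replicate 3 left out) to 17 (shNC replicate 1 left out). DESeq2 and limma on log2 TPM, the latter added after seeing the data, each called 8 pathway genes instead of 13, and 19 members instead of 21. Calls over all genes were also fewer, at 3863 with DESeq2 and 4322 with limma on log2 TPM, against 5032. The cause was not tested. With upper-quartile scaling 22 members passed, 13 higher and 9 lower, with IFI6 and MX1 added and PARP14 lost. Same-numbered samples deviated together with correlations of 0.083 to 0.225, 1 of 3 below 0.1, so the numbers were not taken as pairs, although 6 of 6 samples correlated best with their own number. The 9 other called members were lost in 1 or more settings, of which DTX3L, EIF2AK2, IFI27, IFIH1, IFIT2 and IFITM3 held whenever a single sample was left out. With the replicate block 23 members and 5789 genes passed, against 21 and 5032 without it.

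Genes that changed sign, 9 members and JAK1, were all uncalled and near 0 or sparse. With 1 sample left out in turn, log2 fold changes ranged from -0.11 to 0.095 for ISG15, from -0.017 to 0.070 for SP110, from -0.011 to 0.098 for IFIT5, from -0.067 to 0.0083 for TRIM21, from -0.12 to 0.010 for GBP2, from -0.13 to 0.0077 for GBP3, from -0.13 to 1.06 for RSAD2 and from -0.034 to 0.032 for JAK1. ISG15 was at 0.015 with upper-quartile scaling, 0.027 with limma on log2 TPM and 0.097 with shMSLN replicate 1 alone. In that last setting IFIT5 was at -0.12, RSAD2 at -0.30, CMPK2 at 0.080, SP110 at -0.017 and JAK1 at 0.0061. With limma on log2 TPM, ISG20 was at -0.0086, TRIM21 at 0.00020 SP110 at -0.024 and JAK1 at 0.032. JAK1 was also at 0.023 with upper-quartile scaling and 0.013 with the length trend removed. At 1 CPM a gene has fewer than 20 reads per sample, which limits IFI27 and RSAD2.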

Other observations

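The members' summed level depended on the scale. Summed CPM was 3009, 3101 and 3070 in the shNC samples and 2981, 2940 and 2953 in the shMSLN samples, lower in all 3 of the latter. Summed TPM was 2611, 2674 and 2596 against 2811, 2765 and 2786, higher in all 3. Long members such as EIF2AK2 and SAMD9 weigh more in the first sum and short ones such as IFITM3 and BST2 in the second. The scales also differed over all tested genes, with a median log2 fold change of 0.034 on log2 TPM and 0.0019 in the edgeR fit. The part of each in the sums was not tested. Within the shNC group, 22 of 43 members had their highest CPM in replicate 2 and 21 their lowest in replicate 1, whereas members' highest values in the shMSLN group fell 18, 12 and 13 times on replicates 1, 2 and 3.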
